A study of Mus musculus with 6 samples.

Results

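The ATP-binding cassette (ABC) genes of the mouse osteoblast precursor line MC3T3-E1 are described here across 6 arrays, before and after osteoblast induction. Members were the genes with a probe set naming exactly 1 gene whose symbol starts with Abc, a subfamily letter from a to g and a number. The rule found 48 genes, read by 49 probe sets, among 19938 genes tested, and it used no measured value. The differentiated group held 3 arrays of cells induced at confluence for 14 days in DMEM with β-glycerophosphate (10 mM), sodium pyruvate (1 mM), a phosphate ester of ascorbic acid (0.2 mM), dexamethasone (0.1 µM) and 10% serum. The 3 undifferentiated samples were untreated cells grown in α-MEM made up with no ascorbic acid, also with 10% serum. All 6 samples came from this line, whose labels give newborn C57BL/6 calvaria as its origin. Medium, confluence, the 14 days of induction and the induction compounds differed together between the groups, so their parts in any difference cannot be told apart.

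ABC proteins bind and hydrolyse ATP at paired nucleotide-binding domains, and most use that energy to move a substrate across a membrane. The ABCA and ABCG subfamilies are known mainly for lipids and sterols, ABCB for drugs, peptides and mitochondrial cargo, ABCC for organic anions and for regulating ion channels, and ABCD for peroxisomal fatty acids. ABCE and ABCF proteins lack membrane-spanning parts and act on ribosomes. In bone the family is best known through the sterol exporters and through Abcc6, a gene tied to the supply of pyrophosphate, which restrains mineral deposition.

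The deposited values are log2 expression with each probe set centred to a median of 0 over the 6 arrays. A value above 0 therefore means more RNA than in the middle of these arrays, and neither the level of a gene nor its detection can be read. The centring also makes the innermost pair of a probe set's 6 values mirror images around 0. Differences between arrays are not touched by it. In a culture measured in bulk, fewer cells of a type and less RNA per cell cannot be told apart.

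The family moved in both directions. With limma across all genes and a Benjamini-Hochberg adjusted p under 0.05, 10 of 48 members were higher in differentiated cells, 9 were lower and 29 did not pass. That is 39.6% past the threshold, beside 35.5% of all genes, so the family's share lay near the background. Rises made up 16.4% and falls 19.1% of all genes. The median log2 fold change was 0.05 over the members and 0.02 over all genes, and the median size of change, whatever its sign, was 0.16 and 0.13. Abca1 and Abca9 were the members that rose at least 2-fold, where 2.53% of all genes did, and no member fell that far, where 2.28% of all genes did (4.81% in either direction). The arrays of the groups did not overlap for 27 members, 15 with the differentiated arrays on top and 12 with them below, and for 46.2% of all genes.

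**Figure D1:**
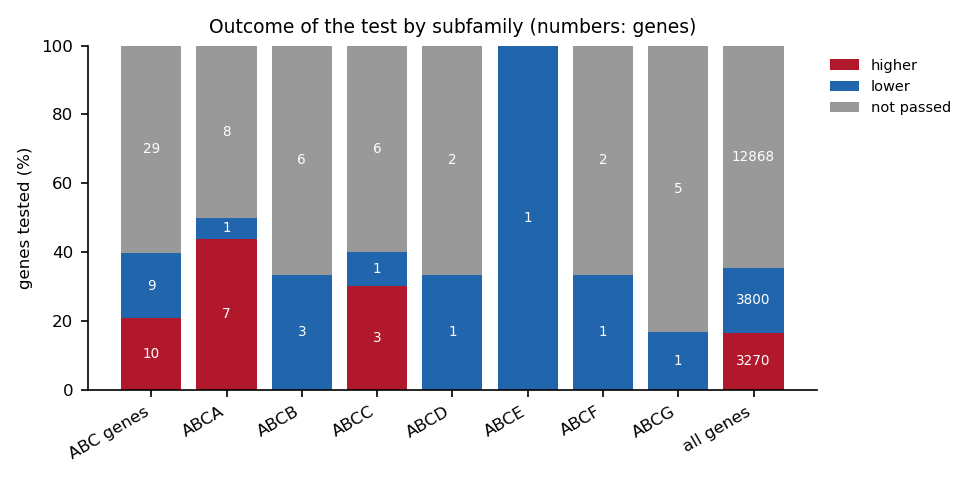
Share of the genes tested, in percent, that were higher, lower or not past the threshold in differentiated cells, for all 48 members, for each of the 7 subfamilies and for all 19938 genes, with the number of genes in each block. Rises stood in ABCA with 7 and ABCC with 3, and the other subfamilies held falls or genes that did not pass.

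The directions differed by subfamily as counts. ABCA had 7 of 16 genes higher and 1 lower, and ABCC had 3 of 10 higher and 1 lower. ABCB had 3 of 9 lower, ABCD and ABCF 1 of 3 lower each, ABCG 1 of 6 lower, and ABCE, with Abce1 as its one gene, was lower. None of these 5 had a gene higher past the threshold with limma, and at an unadjusted p under 0.05 Abcg4 alone was higher among them. Median log2 fold changes were 0.12 in ABCA, 0.15 in ABCC, 0.06 in ABCG, -0.04 in ABCB, -0.13 in ABCD and -0.16 in ABCF. Past the threshold were 50% of ABCA, 40% of ABCC, 33.3% each of ABCB, ABCD and ABCF, and 16.7% of ABCG genes. Over all genes the share was 35.5%, with 16.4% higher and 19.1% lower. The shares of ABCB, ABCC, ABCD and ABCF thus lay near that of all genes, and ABCG's falls near the 19.1%. Most subfamilies are small, and no test compared them with each other. The plot of changes by subfamily shows every member.

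**Figure D2:**
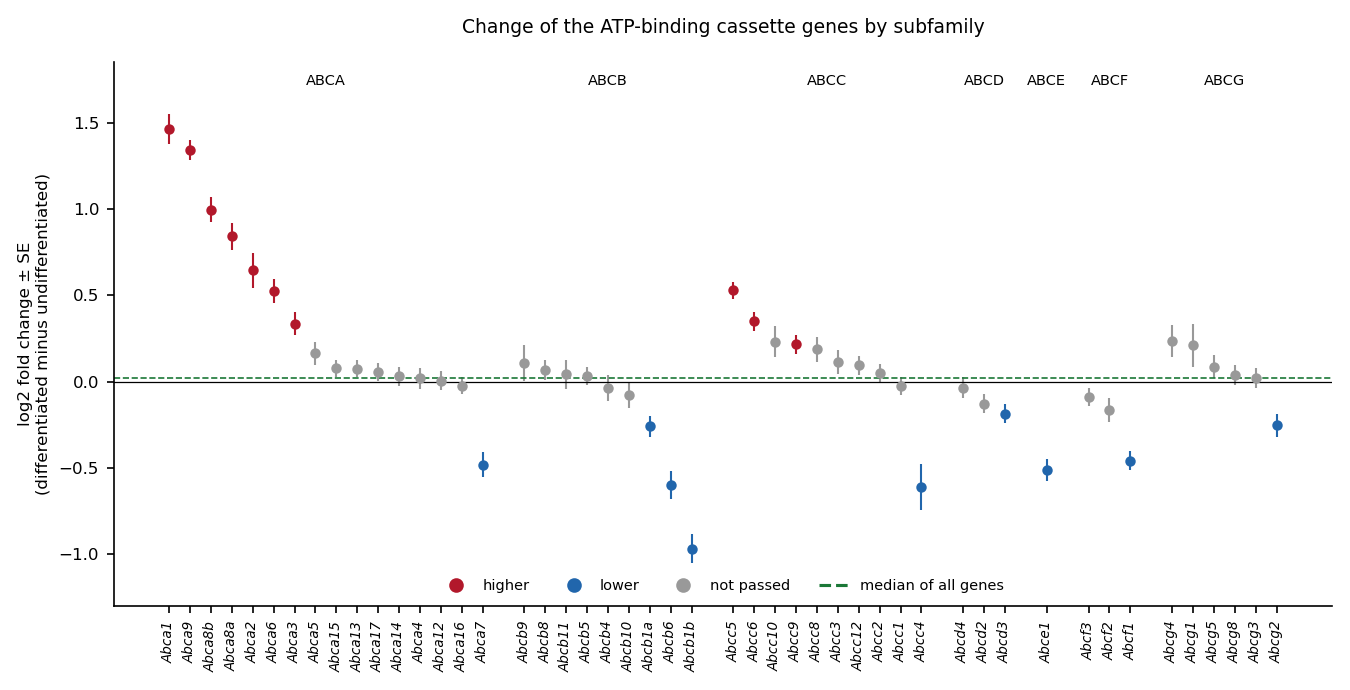
Log2 fold change, differentiated minus undifferentiated, with limma's standard error, for each of the 48 members grouped by subfamily and ordered by change. Red points were higher, blue points lower and grey points not past the threshold, and the dashed line marks the median of all genes at 0.02. The points run from 1.46 in Abca1 to -0.97 in Abcb1b.

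The sterol and phospholipid exporter gene Abca1 (probe set 10512949) had the largest rise of the family. It stood at 0.95, 0.79 and 0.62 in differentiated cells, against -0.65, -0.76 and -0.62 in undifferentiated cells. Every differentiated array lay above every undifferentiated one, with a gap wider than the spread inside either group. Abca1 was thus 2.76-fold higher, or 1.46 ± 0.09 on the log2 scale (moderated SE, n = 3 each, limma adjusted p = 1.84e-06). Abca1 hands cholesterol and phospholipid to lipid-poor apolipoprotein A-I, and it is a textbook target of the liver X receptors, nuclear receptors for oxysterols.

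Abca9 (probe set 10392560), a lipid-type transporter gene whose substrate is poorly defined, came next. Its values were 0.72, 0.66 and 0.60 in differentiated cells, against -0.71, -0.73 and -0.60 in undifferentiated cells. The groups were widely separated and tight, and the rise was 2.53-fold (1.34 ± 0.06, adjusted p = 3.95e-07). Abca8b (probe set 10392484) had 0.44, 0.41 and 0.47 in differentiated cells, against -0.57, -0.68 and -0.41 in undifferentiated cells. It was 1.99-fold higher (1.00 ± 0.07, adjusted p = 7.69e-06). Its close relative Abca8a (probe set 10392522) had 0.56, 0.34 and 0.41 in differentiated cells, against -0.35, -0.53 and -0.34 in undifferentiated cells, a 1.79-fold rise (0.84 ± 0.08, adjusted p = 3.3e-05). The groups stood apart for both genes. Because the copies are alike in sequence, some probes may read both, and this was not tested.

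The rise of Abca6 (probe set 10392601), another relative of Abca8 and Abca9, was smaller. It had 0.42, 0.18 and 0.40 in differentiated cells, against -0.21, -0.18 and -0.18 in undifferentiated cells (0.52 ± 0.07, 1.44-fold, adjusted p = 3.47e-04). The differentiated arrays spread more than the undifferentiated ones but did not reach them. Abca5, which encodes a lipid transporter of late endosomes and lysosomes, differed by 0.17 ± 0.07 and stayed short of the threshold (adjusted p = 0.0848). Its groups did not overlap, as in 46.2% of all genes, and without undifferentiated replicate 1 it passed (0.22, adjusted p = 0.0366).

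These 5 genes, Abca8b, Abca8a, Abca9, Abca6 and Abca5, follow each other on chromosome 11 with no other protein-coding gene between them in the RefSeq annotation of GRCm38.p6. None of the 4 flanking genes was higher past the threshold, where 16.4% of all genes were, and 4 genes are too few to set the run apart. On the side of Abca8b, 1700012B07Rik was at -0.03 ± 0.06 (adjusted p = 0.807), and beyond it Fam20a, a pseudokinase gene of enamel formation, was lower (-0.54 ± 0.06, adjusted p = 7.41e-05). On the side of Abca5, the kinase gene Map2k6 was at -0.24 ± 0.09 (adjusted p = 0.0642) and the potassium channel gene Kcnj16 at 0.06 ± 0.07 (adjusted p = 0.615). In all, members stood next to each other in 5 places. On chromosome 5, Abcb1a and Abcb1b were lower while Abcb4 beside them did not pass. On chromosome 17, Abca3 was higher while its neighbour Abca17 did not pass, and Abcg5 and Abcg8 both did not pass. On chromosome 7, Abca14, Abca15 and Abca16 did not pass.

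**Figure D3:**
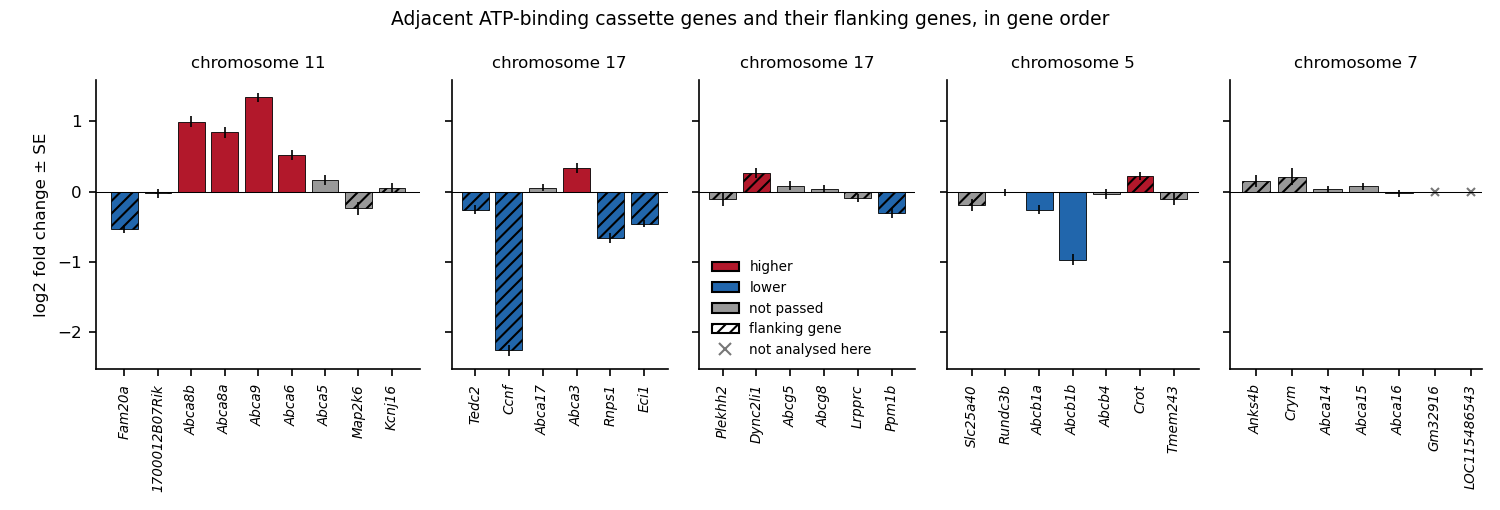
Log2 fold change with limma's standard error for members that are adjacent among protein-coding genes in GRCm38.p6, with 2 flanking genes on each side (hatched), in gene order and not to genomic scale. The 4 genes from Abca8b to Abca6 on chromosome 11 were higher, between flanking genes that were lower or did not pass. Over all genes 16.4% were higher. Crosses mark flanking genes not analysed here.

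The promoters of the members with the largest changes are shown because the results turn on these genes and several of them are neighbours that rose. They comprise the 4 largest rises, of which Abca9, Abca8b and Abca8a are chromosome 11 neighbours, and the largest fall, Abcb1b, with its relative Abcb1a. Each runs from 250 bases before to 50 after the annotated start, 5′ to 3′ along the gene, from RefSeq in build GRCm38.p6, which held a promoter for 38 of the 48 members. Capitals mark matches on either strand to the motifs searched.
Abca1 (chr4:53159846-53160145, minus strand): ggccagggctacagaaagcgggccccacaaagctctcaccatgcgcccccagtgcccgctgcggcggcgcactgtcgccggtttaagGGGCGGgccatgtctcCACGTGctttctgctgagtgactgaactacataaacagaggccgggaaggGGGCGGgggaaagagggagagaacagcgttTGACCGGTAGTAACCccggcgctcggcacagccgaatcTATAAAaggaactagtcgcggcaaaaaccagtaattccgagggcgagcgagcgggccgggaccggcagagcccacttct
Abca9 (chr11:110168104-110168403, minus strand): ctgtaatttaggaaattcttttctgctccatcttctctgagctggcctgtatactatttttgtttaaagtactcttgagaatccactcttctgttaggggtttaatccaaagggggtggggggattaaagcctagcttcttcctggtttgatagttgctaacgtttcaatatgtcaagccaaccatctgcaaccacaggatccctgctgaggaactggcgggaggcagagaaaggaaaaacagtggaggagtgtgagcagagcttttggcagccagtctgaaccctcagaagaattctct
Abca8b (chr11:109995796-109996095, minus strand): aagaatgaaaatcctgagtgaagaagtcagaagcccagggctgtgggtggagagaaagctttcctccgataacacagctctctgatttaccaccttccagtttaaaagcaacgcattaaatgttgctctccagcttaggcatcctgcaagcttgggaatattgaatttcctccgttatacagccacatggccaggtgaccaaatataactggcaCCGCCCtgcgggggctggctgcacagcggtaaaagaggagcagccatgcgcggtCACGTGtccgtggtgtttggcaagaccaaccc
Abca8a (chr11:110095888-110096187, minus strand): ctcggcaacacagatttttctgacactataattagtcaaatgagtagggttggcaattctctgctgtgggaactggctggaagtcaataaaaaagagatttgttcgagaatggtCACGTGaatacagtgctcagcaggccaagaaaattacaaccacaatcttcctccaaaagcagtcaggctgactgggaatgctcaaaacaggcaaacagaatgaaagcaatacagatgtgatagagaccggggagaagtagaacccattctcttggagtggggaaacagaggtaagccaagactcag
Abcb1b (chr5:8797897-8798196, plus strand): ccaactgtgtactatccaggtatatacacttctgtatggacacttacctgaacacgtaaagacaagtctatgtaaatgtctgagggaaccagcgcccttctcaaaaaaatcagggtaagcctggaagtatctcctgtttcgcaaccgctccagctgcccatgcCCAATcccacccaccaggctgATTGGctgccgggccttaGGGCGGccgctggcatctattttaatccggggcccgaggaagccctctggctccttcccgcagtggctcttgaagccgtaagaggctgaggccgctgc
Abcb1a (chr5:8566841-8567140, plus strand): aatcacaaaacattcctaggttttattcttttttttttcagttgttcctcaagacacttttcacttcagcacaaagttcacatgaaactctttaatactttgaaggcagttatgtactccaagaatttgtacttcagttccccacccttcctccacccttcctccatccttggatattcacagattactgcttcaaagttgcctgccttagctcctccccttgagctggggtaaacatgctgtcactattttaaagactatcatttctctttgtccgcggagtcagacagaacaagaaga

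Short motifs were searched on both strands. For general promoter elements they were the GC box GGGCGG, the TATA box TATAAA and the sequence CCAAT. Factor motifs were the E-box CACGTG, the AP-1 motif TGANTCA and, for nuclear receptors, the core site AGGTCA. The core site was also searched as a direct repeat with 4 bases between the copies, and the glucocorticoid receptor consensus as AGAACA, 3 bases of any kind and then the reverse complement of those letters. A further motif was an imperfect direct repeat, in which GGTTA comes first, then 5 bases of any kind, then the letters GGTCA. It spells the repeat known from Abca1 promoters as a liver X receptor element, and it was added for that reason. The repeat of AGGTCA contains that core site. The imperfect repeat ends in the core site's last 5 letters, so it also matches the core site where the base before them is A. No other pair of motifs overlaps by design. Abca1 held the imperfect repeat on the strand opposite to the gene from -67 to -53, a TATA box from -29 to -24, an E-box from -147 to -142, and GC boxes starting at -163 and -97. Among all 32851 promoter windows of the table, the imperfect repeat was in 0.0487%, the TATA box in 13.6%, the E-box in 7.15% and the GC box in 35.7%. Of the 38 members with a window, Abca1 was the one that held the imperfect repeat. Since that motif was taken from Abca1 promoters, its match here was largely set by the choice, and its rarity tells nothing further about Abca1.

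Among the neighbours on chromosome 11, Abca9 held none of the motifs, Abca8b had a GC box from -36 to -31 and an E-box from 19 to 24, and Abca8a had an E-box from -136 to -131. GC content was 45.3% in Abca9, 51.3% in Abca8b and 44.3% in Abca8a, against 62.7% in Abca1. Abcb1b held a GC box from -48 to -43 and CCAAT boxes starting at -87 and -66, in a window of 55.0% GC, while Abcb1a held none and had 40.3% GC. CCAAT stood in 37.4% of all windows. The repeat of AGGTCA, the glucocorticoid receptor consensus and TGANTCA were in none of the 38 members' windows, and in 0.0152%, 0.00913% and 7.81% of all windows. A match describes these letters and is not a site shown to be used.

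The remaining changes in ABCA were smaller. Abca2 (probe set 10470050), a lysosomal transporter gene known mainly from brain, had 0.39, 0.15 and 0.26 in differentiated cells, against -0.52, -0.46 and -0.15 in undifferentiated cells (0.64 ± 0.10, 1.56-fold, adjusted p = 0.00102). Undifferentiated replicate 3 lay nearest to the differentiated arrays. Abca3, the phospholipid transporter of lung surfactant bodies, rose by 0.34 ± 0.07 (1.26-fold, adjusted p = 0.00409). Abca7, a close relative of Abca1 and also a phospholipid transporter, went the other way. It had -0.30, -0.14 and -0.30 in differentiated cells, against 0.24, 0.14 and 0.34 in undifferentiated cells, and was 1.40-fold lower (-0.48 ± 0.07, adjusted p = 7.35e-04).

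Further ABCA genes known mainly from other tissues did not pass, with changes from 0.08 to -0.02 on the log2 scale. They were the retinal flippase gene Abca4 (0.02), the skin lipid transporter gene Abca12 (0.01), Abca13 (0.08), and Abca14 (0.03), Abca15 (0.08), Abca16 (-0.02) and Abca17 (0.06). Their standard errors were 0.05 to 0.06. Their expression as such cannot be judged without a level.

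**Figure D4:**
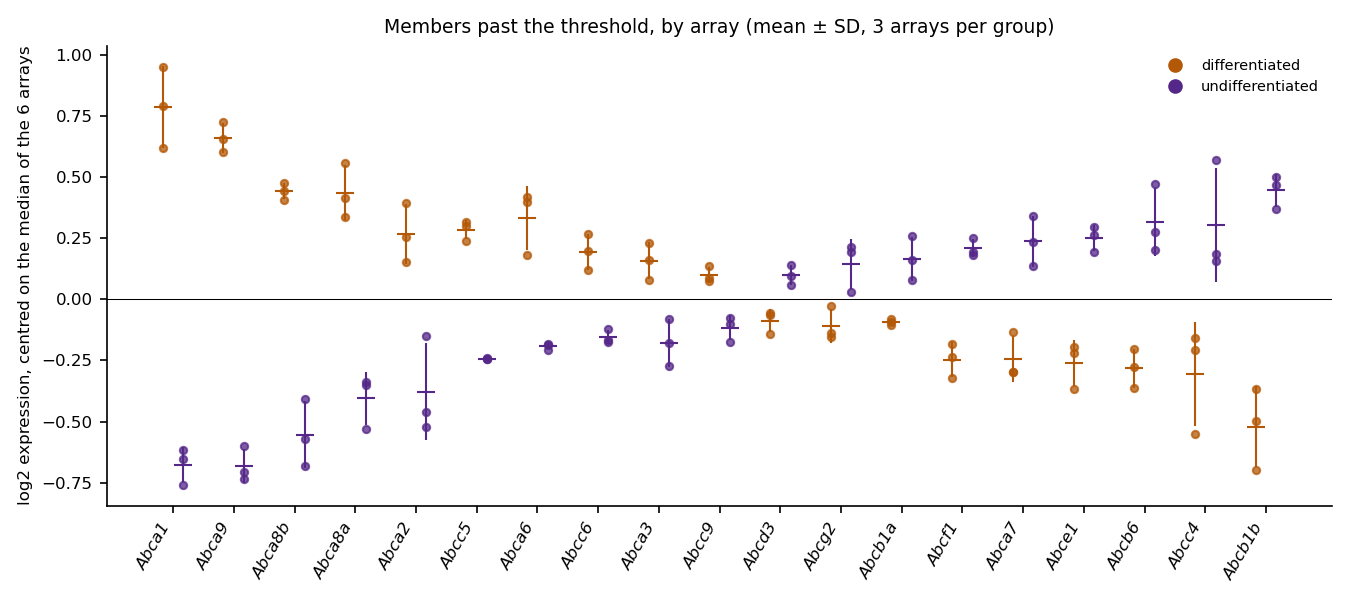
Centred log2 expression in each of the 6 arrays for the 19 members past the threshold, ordered by change, with differentiated arrays left of undifferentiated ones and bars for the mean ± SD of 3 arrays. Points of the groups are separate in every gene shown, as in 46.2% of all genes. The genes were chosen by the test on these same arrays, which favours separate groups. Among rises the separation is widest in Abca1 and Abca9 on the left, and among falls in Abcb1b on the right.

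The 3 ABCB genes past the threshold were falls. Abcb1b (probe set 10519555), one of the rodent genes for P-glycoprotein, the exporter of many drugs and steroids, had the largest fall of the family. It stood at -0.50, -0.37 and -0.70 in differentiated cells, against 0.50, 0.47 and 0.37 in undifferentiated cells. All differentiated arrays lay below all undifferentiated ones, and the difference was 1.95-fold (-0.97 ± 0.09, adjusted p = 2.47e-05). Its relative Abcb1a (probe set 10519527) had -0.093, -0.10 and -0.079 in differentiated cells, against 0.079, 0.16 and 0.26 in undifferentiated cells (-0.26 ± 0.06, 1.20-fold lower, adjusted p = 0.00834). The groups were separate here too, by less. Probes shared between these like copies were not tested. Abcb4, which moves phosphatidylcholine into bile, was at -0.04 ± 0.07.

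Abcb6 (probe set 10355742), a transporter gene linked to porphyrins, was 1.51-fold lower. It had -0.36, -0.28 and -0.20 in differentiated cells, against 0.47, 0.28 and 0.20 in undifferentiated cells (-0.60 ± 0.08, adjusted p = 3.14e-04). Differences did not pass in the mitochondrial transporter genes Abcb8 (0.07 ± 0.06) and Abcb10 (-0.08 ± 0.08), the bile salt pump gene Abcb11 (0.04 ± 0.08) or Abcb5 (0.03 ± 0.05), whose pair of probe sets gave 0.03 and 0.04. Abcb9, which encodes a lysosomal peptide transporter, was at 0.11 ± 0.11 (adjusted p = 0.504), with undifferentiated arrays from -0.27 to 0.18. Without undifferentiated replicate 2, Abcb9 was at 0.24 and passed (adjusted p = 0.0351).

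In ABCC, Abcc5 (probe set 10438478), an exporter of cyclic nucleotides, rose with little spread. Its values were 0.31, 0.24 and 0.30 in differentiated cells, against -0.24, -0.25 and -0.24 in undifferentiated cells (0.53 ± 0.05, 1.44-fold, adjusted p = 4.17e-05). Abcc4 (probe set 10422280), an exporter of cyclic nucleotides and prostaglandins, went down. It had -0.21, -0.55 and -0.16 in differentiated cells, against 0.18, 0.16 and 0.57 in undifferentiated cells. Differentiated replicate 2 and undifferentiated replicate 3 were the extremes, and the groups stayed apart (-0.61 ± 0.13, 1.53-fold lower, adjusted p = 0.00588).

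Abcc6 (probe set 10563447), whose loss in people and mice causes calcification of soft tissue, had 0.20, 0.27 and 0.12 in differentiated cells, against -0.17, -0.12 and -0.17 in undifferentiated cells. The groups were separate, and the rise was 1.27-fold (0.35 ± 0.06, adjusted p = 0.0012). Abcc9, a sulphonylurea receptor that regulates ATP-sensitive potassium channels, rose by 0.22 ± 0.05 (1.16-fold, adjusted p = 0.0116). The other receptor of that kind, Abcc8, was at 0.19 ± 0.07 and did not pass (adjusted p = 0.0790), but passed without undifferentiated replicate 3 (0.24, adjusted p = 0.0314). Abcc10 behaved alike, at 0.23 ± 0.09 (adjusted p = 0.0817) and at 0.33 without that array (adjusted p = 0.00893). The organic anion exporters Abcc1 (-0.02 ± 0.05), Abcc2 (0.05 ± 0.05) and Abcc3 (0.12 ± 0.07) and the little-known Abcc12 (0.09 ± 0.05) did not pass. The 95% interval for Abcc1, the glutathione conjugate and leukotriene exporter, was -0.14 to 0.10.

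The peroxisomal and ribosomal subfamilies held no rises. Abcd3 (probe set 10501832), the most abundant ABC protein of the peroxisome membrane in liver, had -0.14, -0.058 and -0.062 in differentiated cells, against 0.14, 0.097 and 0.058 in undifferentiated cells (-0.19 ± 0.05, adjusted p = 0.0251). The separation was narrow, and the call was lost without differentiated replicate 1 or 3 or undifferentiated replicate 1 or 2 (adjusted p from 0.0535 to 0.0912). Abcd2, a very-long-chain fatty acid transporter gene, was at -0.13 ± 0.06 (adjusted p = 0.123), and the lysosomal cobalamin transporter gene Abcd4 at -0.04 ± 0.06. Abce1 (probe set 10579874), which splits ribosomes after termination, had -0.37, -0.19 and -0.22 in differentiated cells, against 0.26, 0.30 and 0.19 in undifferentiated cells. It was 1.43-fold lower with no overlap of groups (-0.51 ± 0.06, adjusted p = 2.24e-04).

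Abcf1 (probe set 10450648), which works with initiation factor eIF2, had -0.23, -0.32 and -0.18 in differentiated cells, against 0.25, 0.18 and 0.20 in undifferentiated cells (-0.46 ± 0.06, 1.37-fold lower, adjusted p = 2.28e-04). Again the groups were separate. Abcf2 (-0.16 ± 0.07, adjusted p = 0.0953) and Abcf3 (-0.09 ± 0.05, adjusted p = 0.251) did not pass. Their groups did not overlap, and Abcf2 passed without undifferentiated replicate 3 (-0.23, adjusted p = 0.0161). Groups were also separate for Abca13, Abca15, Abcc2, Abcc12 and Abcd2, which did not pass either, and for 46.2% of all genes.

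Sterol exporters of ABCG did not follow Abca1 past the threshold. Abcg1, which moves cholesterol to HDL and is another known liver X receptor target, had 0.015, 0.19 and -0.015 in differentiated cells, against -0.41, -0.16 and 0.13 in undifferentiated cells. The groups overlapped through undifferentiated replicate 3, the highest of its group (0.21 ± 0.12, adjusted p = 0.238, 95% interval -0.07 to 0.49). Without that array Abcg1 was at 0.35 and passed (adjusted p = 0.0183). Abcg4, its relative, was at 0.24 ± 0.09 (adjusted p = 0.0818) and at 0.34 without the same array (adjusted p = 0.00384). The sterol exporter pair of gut and liver, Abcg5 (0.09 ± 0.07) and Abcg8 (0.04 ± 0.06), and the rodent gene Abcg3 (0.02 ± 0.06) did not pass.

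Abcg2 (probe set 10538640), the breast cancer resistance protein, an exporter of drugs and porphyrins, was the one ABCG gene past the threshold. It had -0.029, -0.16 and -0.14 in differentiated cells, against 0.19, 0.21 and 0.029 in undifferentiated cells, and was 1.19-fold lower (-0.25 ± 0.07, adjusted p = 0.0174). Differentiated replicate 1 and undifferentiated replicate 3 came close to each other. The call was lost without differentiated replicate 2 or 3 or undifferentiated replicate 1 or 2 (adjusted p from 0.0602 to 0.0654). Undifferentiated replicate 3 was the undifferentiated array nearest to the differentiated mean in 11 of the 19 members past the threshold. Replicate 2 was nearest in 5 and replicate 1 in 3. The like count over all genes was not made. Deviations of undifferentiated replicate 3 from its group mean were the widest over all genes (SD 0.0947, others 0.0745 to 0.0867). Its part in the members' results beyond the values given was not tested.

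Family members named otherwise fall outside the rule. Of the peptide transporter pair that loads MHC class I, Tap1 was at -0.32 ± 0.10 (adjusted p = 0.0303) and Tap2 at 0.28 ± 0.09 (adjusted p = 0.0310). These calls were weak. Tap1 lost its call without differentiated replicate 1 or 2 or undifferentiated replicate 1 or 3, and Tap2 without differentiated replicate 2 or 3 or undifferentiated replicate 1 or 2, with adjusted p up to 0.103 and 0.104. The chloride channel gene Cftr was at -0.05 ± 0.05.

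Genes that work with the transporters were read from lists of textbook partners, and the counts cover the listed genes analysed here. Over all genes 16.4% were higher and 19.1% lower, or 35.5% past the threshold. Of 17 genes of sterol efflux and liver X receptor control, 7 were higher, 3 lower and 7 did not pass, with a median of 0.20. That is 58.8% past the threshold. Ch25h, which makes the oxysterol 25-hydroxycholesterol, rose 6.55-fold (2.71 ± 0.12), and the phospholipid transfer protein gene Pltp 2.56-fold (1.36 ± 0.08). The lysosomal cholesterol carriers Npc2 (1.07 ± 0.05) and Npc1 (1.02 ± 0.09) rose too. Nr1h3, which encodes liver X receptor α, rose by 0.35 ± 0.07 (adjusted p = 0.00481), while Mylip, a further target of that receptor, was at -0.09 ± 0.06 (adjusted p = 0.297). Lpcat3, Scarb1 and Rxrb fell, by 0.35, 0.35 and 0.31 on the log2 scale. Nr1h2 was not analysed here.

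Around Abcc6, 6 of 11 genes of extracellular ATP and pyrophosphate were higher and 1 was lower (median 0.27). That is 63.6% past the threshold, beside 35.5% of all genes. The largest were Ank, a gene for export of pyrophosphate or ATP (2.25 ± 0.07), the ecto-5′-nucleotidase gene Nt5e (1.64 ± 0.08), the phosphate transporter gene Slc20a1 (1.61 ± 0.11) and Entpd3 (1.48 ± 0.09). Alpl, the alkaline phosphatase that cleaves pyrophosphate, rose by 0.96 ± 0.08, and the ATP release channel gene Panx1 fell by 0.47. Enpp1, also on this list, was not analysed here. The pores that pair with Abcc8 and Abcc9 did not pass with limma, Kcnj8 at 0.17 ± 0.07 and Kcnj11 at 0.07 ± 0.10, and 1 of these 2 genes had an unadjusted p under 0.05.

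Of 16 genes of termination, ribosome recycling and the Gcn2 pathway, among which Abce1 and Abcf1 work, 8 were lower, 1 was higher and 7 did not pass (median -0.20). That is 56.2% past the threshold, beside 35.5% of all genes. The eIF2 subunits Eif2s2 (-0.76 ± 0.06) and Eif2s3x (-0.72 ± 0.06), the release factor Gspt1 (-0.69 ± 0.06) and the recycling factor Denr (-0.60 ± 0.06) fell. The one rise, Zfp598 (0.21, adjusted p = 0.0253), was lost without differentiated replicate 1 or 3 or undifferentiated replicate 1 or 3.

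Mitochondrial iron-sulphur and haem synthesis, where Abcb6 and Abcb10 have been placed, had 5 of 20 genes higher and 5 lower. That is 50% past the threshold, beside 35.5% of all genes. The haem enzymes Cpox (-1.04 ± 0.07) and Alad (-0.69 ± 0.06) and the chaperone Hspa9 (-0.94 ± 0.05) fell, and the iron importer Slc25a37 rose (0.96 ± 0.05). Peroxisome genes had 6 of 22 higher and 3 lower, or 40.9% past the threshold, near the share of all genes. The oxidation enzymes Acox3 (0.51 ± 0.05), Phyh (0.42 ± 0.06) and Acaa1a (0.41 ± 0.06) rose and the import factor Pex2 fell (-0.45 ± 0.08). Both medians, 0.02, equalled that of all genes to 2 decimals.

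Glutathione genes, which supply substrates of Abcc1, had 9 of 24 higher and 3 lower (median 0.10). That is 50% past the threshold, beside 35.5% of all genes. The transferases Gstm5 (1.23 ± 0.06) and Gstm1 (0.83 ± 0.06) and the regulator Nfe2l2 (1.13 ± 0.05) rose, and Gclm, of glutathione synthesis, fell (-0.86 ± 0.07). In peptide loading, 4 of 13 genes were higher and 5 lower (69.2% past the threshold), Tap1 and Tap2 among them. B2m (1.35 ± 0.05) and Tapbp (0.57 ± 0.06) rose and Tapbpl (-0.36 ± 0.06) and Canx (-0.26 ± 0.05) fell. The counts moved when 1 array was left out. Then 2 were higher without differentiated replicate 2 or 3 or undifferentiated replicate 1 or 2. Likewise 2 were lower without differentiated replicate 1 or undifferentiated replicate 1 or 3, and 3 without differentiated replicate 3.

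Nuclear receptors known to act on transporter genes moved both ways, 4 of 14 higher and 3 lower. That is 50% past the threshold, beside 35.5% of all genes. Nr1h4, the bile acid receptor (1.10 ± 0.11), and Esr1 (0.93 ± 0.06) rose, and Vdr (-2.11 ± 0.07) and Ahr (-0.58 ± 0.10) fell. Nr1i2, the pregnane receptor that acts on P-glycoprotein genes, was at -0.01 ± 0.07. Nr3c1, the glucocorticoid receptor, was at 0.19 ± 0.06 (adjusted p = 0.0482) and lost its call without any 1 of the 6 arrays, after cyclic loess scaling, and when every probe set or only genes with 1 probe set were tested.

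Bone markers moved in both directions. Of 8 osteoblast markers analysed, 3 rose, with Ibsp at 3.12 ± 0.09 and Dmp1 at 3.44 ± 0.20, and 2 fell. Runx2, Bglap and Spp1, also on that list, were not analysed here. The falls were in Col1a1, a chain of the main bone collagen (-0.40 ± 0.07, adjusted p = 0.00146), and Sp7 (-0.40 ± 0.07), which did not pass after cyclic loess scaling (-0.21, adjusted p = 0.106). Abca1 and Abcg1 are also abundant in macrophages, and 3 of 11 macrophage markers rose, Fcer1g (0.53 ± 0.07), Cd68 (0.44 ± 0.10) and Cd14 (0.42 ± 0.05). The mean of that list ran from 0.054 to 0.14 in differentiated arrays and from -0.11 to -0.049 in undifferentiated arrays, while Adgre1 (-0.03), Csf1r (0.07) and Ptprc (0.10) did not pass. P-glycoprotein genes are abundant in endothelium, where 1 of 8 markers rose, Vwf (0.23 ± 0.06, adjusted p = 0.0226). Its call was lost after cyclic loess scaling (0.11) and without any array but undifferentiated replicate 3. In adipocytes 1 of 7 markers rose, Fabp4 (0.46 ± 0.06). Skeletal muscle had 1 of 6 higher, Tnnt3 (0.30 ± 0.10, limma adjusted p = 0.0393). Of osteoblast markers 62.5% passed, of macrophage 27.3%, endothelial 12.5%, adipocyte 14.3% and muscle 16.7%, beside 35.5% of all genes. Over all genes 16.4% rose, and the endothelial, adipocyte and muscle shares lay near that. The part of these other cell types in the members' results was not tested, and the level of their markers cannot be read here.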

How the data were processed

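RNA from 3 differentiated and 3 undifferentiated MC3T3-E1 samples was measured with 1 array each. The authors deposited log2 values made with RMA, per the submitters' processing notes (no version). The values also show a row median of 0, within 5e-07, in every probe set, so no filter on dim probe sets was possible. The number of arrays limits the precision. No genome build is named in the labels.

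Of 28856 probe sets, 21789 name 1 gene, 1621 several and 5446 none in the platform annotation. Symbols were updated by gene ID through RefSeq (GRCm38.p6) for 21698 of them, which changed no member's symbol. Probe sets of a gene were averaged. Differentiated minus undifferentiated was fitted over 19938 genes with limma's lmFit and eBayes, without a block, two-sided at 0.05 after Benjamini-Hochberg over all genes, and tested on simulated data. Errors are moderated standard errors. The labels call replicates independent without saying what separated them, so p-values measure the spread between these samples, which may be technical.

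Members and lists were chosen with earlier results of these data known. Every member is named. Arrays and full statistics are given for members past the threshold with a change of at least 0.5 on the log2 scale and for each subfamily's largest change. From each list, up to 4 past the threshold were named by size of change, beside a preset group named regardless. Abca7, Abcb1a, Abcc6 and Abcg1 by array, and Lpcat3, Scarb1, Rxrb, Panx1, Zfp598 and the markers, were picked with their values known, and so was the imperfect repeat motif. Alternatives were scaling by quantiles, medians or cyclic loess, a block for the replicate number, other treatments of probe sets, array weights, robust eBayes and leaving out each array. Software was R 4.3.3 with limma 3.58.1 and, to read tables, data.table (version 1.17.8).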

Additional observations from a re-analysis of the deposited data

How the results depend on the processing

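Of the 19 members past the threshold, 17 kept their direction and call under every alternative run, and 2 (Abcd3 and Abcg2) lost the call only when an array was left out. No called member reversed. Outside the 19, 7 passed under at least 1 alternative, and the like share over all genes was not counted. Over the family, 10 to 13 genes were higher and 9 lower under the alternatives that kept all arrays. When an array was left out, 10 to 14 were higher and 7 to 10 lower. Over all genes tested, 3051 to 3468 were higher and 3468 to 3923 lower with all arrays kept. With an array left out, 2675 to 3656 were higher and 3297 to 3867 lower. Calls over all genes rose to 7391 with array weights and to 7523 without undifferentiated replicate 3. With array weights 5 ABCC genes and 1 ABCG gene were higher, and with the replicate number as a block 1 ABCG gene was higher (Abcg4, adjusted p = 0.0256), as was Abcc10 (adjusted p = 0.0411). The block moved the count over all genes to 7162 of 19938, beside 7070. Same-numbered arrays shared only a number: their deviations correlated at -0.00133, 0.0692 and 0.162, and not every array correlated best with its own number. Without 1 array, higher genes numbered 0 to 1 in ABCB, 3 to 5 in ABCC and 0 to 2 in ABCG, and lower genes 0 to 1 in ABCD, 1 to 2 in ABCF and 0 to 1 in ABCG. Among the partners, peptide loading then had 2 to 4 higher and 2 to 5 lower genes, and ribosome recycling 0 to 1 higher. With only genes that have 1 probe set, 3 iron-sulphur and haem genes were higher, where fewer genes are tested. Signal over background is unknown, so a member that did not pass may be dim or unexpressed.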
